A study of Mus musculus with 24 samples.

Results

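The experiment asked whether the colon of mice without epithelial Axin1 passed from day 7 to day 13 of dextran sulfate sodium (DSS) colitis in the same way as the colon of wild-type mice. The quantity compared is an interaction, the log2 change between day 13 and day 7 in knockout (KO) mice minus the same log2 change in wild-type (WT) mice. A positive interaction means that a gene moved up more, or down less, in KO than in WT. Of the 24 libraries of the series 12 enter it, with 3 in each of 4 groups: KO colon at day 13, KO colon at day 7, WT colon at day 13 and WT colon at day 7. In KO mice Axin1 is deleted from intestinal epithelial cells, and all mice are of the C57BL/6 strain and received DSS, a polymer that injures the colonic epithelium. The labels name day 13 or day 7 as the time of sacrifice. The sources used here do not give the promoter that drives the deletion, the deleted part of the gene, the days on which DSS was given, the ages or the time of day of sampling. The design describes biological replicates. All 18102 genes that passed the filter on low counts, of 55487 listed, were tested, in a fit that also held 6 libraries of untreated KO and WT colon to estimate the spread. Levels are given as CPM, the count of a gene scaled to the size of its library, changes as log2 values ± SE, and 3 libraries stand behind each group throughout.

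Axin1 holds together the proteins that tag beta-catenin for degradation, and beta-catenin is the effector of the Wnt signal that keeps stem cells of the intestinal crypt dividing. DSS strips the epithelium and lets luminal bacteria reach the tissue. In the days after such an injury, surviving crypt cells divide, crypts refill with absorptive and mucus-secreting cells, and infiltrating immune cells decline. Dividing cells need new ribosomes, replicated DNA and membrane lipid, so genes for ribosome biogenesis, DNA replication and sterol synthesis commonly move with epithelial repair.

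Axin1 (chr17:26138688-26195811, plus strand, GRCm38) was read first because it checks the genotype labels. It stood at 17.1, 14.7 and 12.9 CPM in KO libraries of day 13 and at 15.04, 15.2 and 15.7 CPM in KO libraries of day 7. WT libraries held 55.3, 45.6 and 52.5 CPM at day 13 and 47.4, 45.3 and 49.1 CPM at day 7. No KO library reached the level of any WT library, and the days overlapped in both genotypes. The interaction of Axin1 was -0.15 ± 0.16 (adjusted p = 0.773).

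The 12 libraries held 15.65 M to 27.67 M expected counts, with a median of 22.8 M, and 22675 to 23980 genes with at least 1 count. Colon epithelium markers summed to 12130 to 13200 CPM in KO day 13, 10910 to 13200 in KO day 7, 10520 to 13960 in WT day 13 and 10290 to 14730 in WT day 7, so that the 4 groups overlapped. Some libraries stood apart in other tissue. The 10 smooth muscle genes summed to 12710 CPM in WT day 7 replicate 2, against 2256 to 6899 CPM in the other 11 libraries. The squamous epithelium genes summed to 1214 CPM in KO day 13 replicate 1 and 5272 CPM in WT day 13 replicate 3, and all other libraries of the 12 held 6.60 to 50.4 CPM. The 4 Y-linked genes summed to at most 0.0465 CPM in KO day 13, to 146.8, 0.0407 and 0 CPM in KO day 7, to 117.4 to 143.5 CPM in WT day 13 and to at most 0.118 CPM in WT day 7. In WT, therefore, all libraries of day 13 carried Y-linked transcripts and none of day 7 did beyond a trace, so day and sex cannot be told apart in that genotype, nor in the interaction that contains it.

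**Figure D1:**
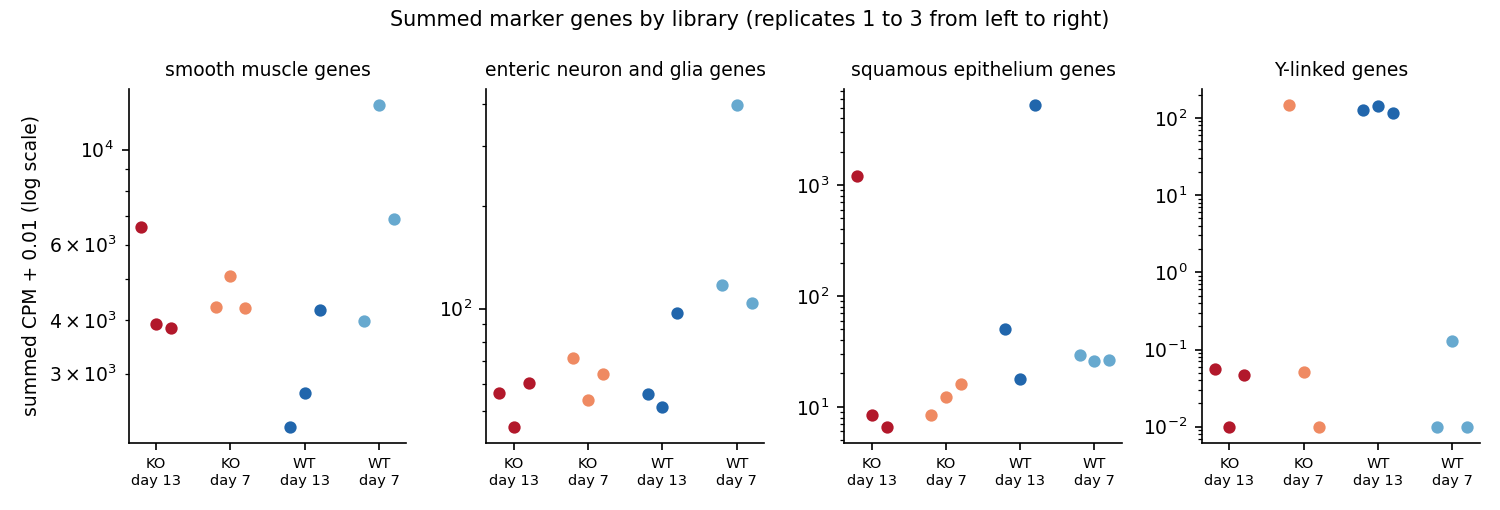
Summed CPM of 4 marker lists in each of the 12 libraries, on a log scale after adding 0.01, with KO day 13, KO day 7, WT day 13 and WT day 7 from left to right and 1 point per library. WT day 7 replicate 2 stands highest for smooth muscle (12710) and for enteric neuron and glia genes (397.0), 2 libraries stand out for squamous epithelium (1214 and 5272), and Y-linked genes are high in WT day 13 and in KO day 7 replicate 1 (146.8).

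No gene passed the threshold of 0.05 for the interaction after Benjamini-Hochberg adjustment in edgeR's quasi-likelihood test, which is 0% of the 18102 genes. The smallest adjusted p was 0.0908, reached by 8 genes (Lbh, Igsf23, Cacna1e, Nab1, Fasn, Nup107, Lrp8 and Foxk2). Without adjustment, 802 genes (4.43%) had a higher and 1323 genes (7.31%) a lower interaction at p under 0.05. DESeq2 on the same counts called 60 genes higher (0.331%) and 222 lower (1.23%), with no adjusted p for 1500 genes. The median interaction over all genes was -0.03, with a median SE of 0.38, and 8513 genes were positive against 9589 negative.

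Each genotype by itself moved over the same days, and KO gave more calls. In KO, 763 genes rose (4.22%) and 1558 fell (8.61%) at day 13 against day 7, while in WT 5 genes rose (0.0276%) and 6 fell (0.0331%). DESeq2 called 1141 genes higher (6.3%) and 1967 lower (10.9%) in KO, and 313 higher (1.73%) and 438 lower (2.42%) in WT, a smaller gap. In the edgeR test without adjustment, 1426 genes were higher (7.88%) and 1634 lower (9.03%) in WT. The 3 libraries of day 13 did not overlap those of day 7 for 7037 genes in KO (38.9%) and for 2705 genes in WT (14.9%). The median SD between replicates on the log2 scale was 0.154 in KO day 13, 0.155 in KO day 7, 0.210 in WT day 13 and 0.273 in WT day 7, so the WT groups were the more variable. The fit gives each gene a single estimate of its spread over all groups, and the median SE of a change was 0.270 in KO and 0.271 in WT. What sets the gap in calls was not tested.

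The directions of KO calls were mostly shared with WT. Of the 763 genes that rose in KO, 710 (93.05%) had a positive change in WT, as did 52.2% of all genes, and their median change was 0.77 in KO against 0.35 in WT. Of the 1558 that fell in KO, 1407 (90.31%) had a negative change in WT, as did 47.8% of all genes, with a median of -0.78 in KO against -0.26 in WT. These genes were chosen on the KO change, which favours large values in KO, so the gap between the medians is a description. Among them, 365 of those that rose (47.84%) and 539 of those that fell (34.6%) had an unadjusted p under 0.05 in the same direction in WT. Over all genes, 7.88% were higher and 9.03% lower in WT at that threshold. Across all 18102 genes the KO and WT changes had a Pearson r of 0.27 and a Spearman rho of 0.38; genes are not independent replicates, and the 2 changes share no library. In bulk tissue, fewer cells of a type and less RNA per cell cannot be told apart, which holds for every result that follows.

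**Figure D2:**
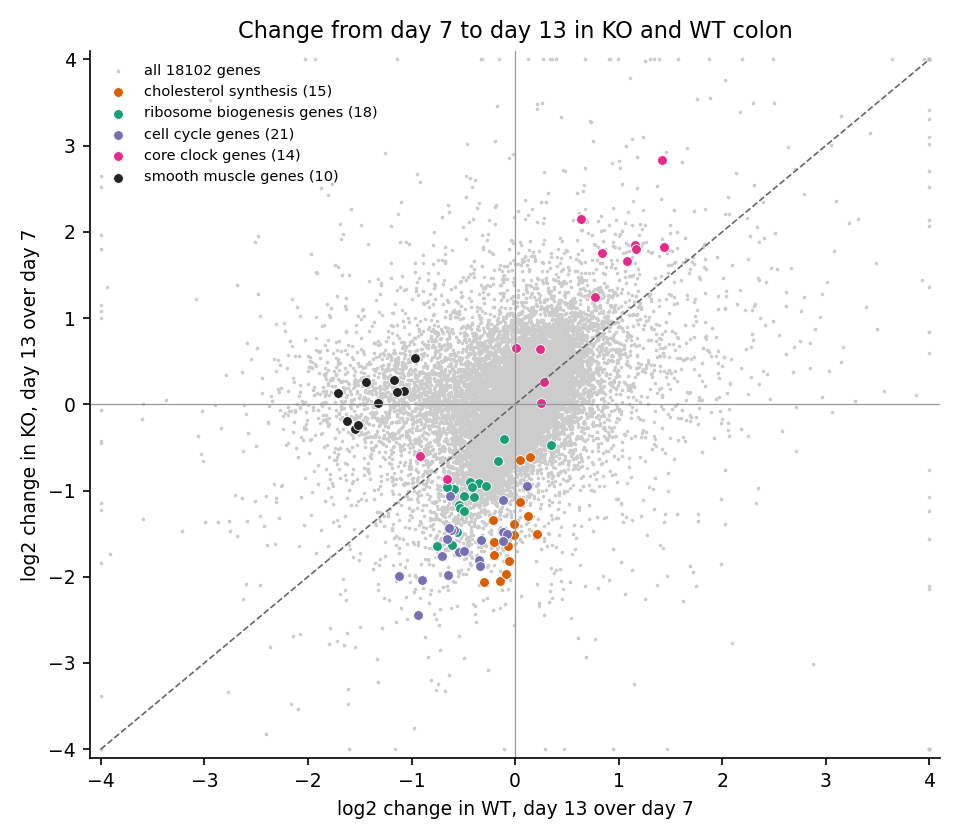
Log2 change at day 13 over day 7 in WT (horizontal) and in KO (vertical) for each of the 18102 genes, with 5 gene lists in colour and genes beyond the axes drawn at their edges. Points on the dashed line changed equally. The 15 cholesterol synthesis genes lie near 0 in WT and below 0 in KO, while the 10 smooth muscle genes lie near 0 in KO and below 0 in WT.

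Among the genes with a higher interaction, Lbh, a transcriptional co-regulator first described in the limb bud and heart, had the smallest p. It stood at 124, 122 and 128 CPM in KO day 13 and at 32.9, 24.2 and 18.2 CPM in KO day 7. In WT it held 34.3, 30.9 and 50.5 CPM at day 13 and 36.1, 68.4 and 27.0 CPM at day 7. All KO libraries of day 13 lay above all other libraries, and the WT days overlapped. Lbh rose in KO by 2.31 ± 0.30 (adjusted p = 0.00022), its WT change was -0.18 ± 0.29 (adjusted p = 0.801), and the interaction was 2.49 ± 0.41 (adjusted p = 0.0908). Leaving out WT day 7 replicate 3 moved its adjusted p to 0.03, and adding a covariate of Y-linked expression moved it to 0.871. That covariate goes with day in WT and takes its slope mainly from other groups, so the second shift does not settle whether sex or day is involved.

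Cacna1e, the pore-forming subunit of a voltage-gated calcium channel of neurons and endocrine cells, held 23.9, 23.1 and 25.1 CPM in KO day 13 and 4.26, 4.76 and 2.69 CPM in KO day 7. Its WT libraries held 5.74, 8.85 and 7.46 CPM at day 13 and 11.8, 13.1 and 4.86 CPM at day 7. The KO days were far apart and the WT days overlapped. The interaction was 3.05 ± 0.53, made up of a KO rise of 2.62 ± 0.39 (adjusted p = 0.000474) and a WT change of -0.43 ± 0.37.

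Igsf23, a member of the immunoglobulin superfamily, held 128, 54.3 and 54.0 CPM in KO day 13 and 16.1, 15.3 and 13.2 CPM in KO day 7. WT held 12.1, 18.6 and 12.8 CPM at day 13 and 21.0, 22.8 and 16.7 CPM at day 7. KO day 13 replicate 1, the library with squamous genes, was the highest, and the other KO libraries of day 13 also lay above all remaining libraries. The interaction was 2.88 ± 0.50, and 2.32 without that library. The mitochondrial ribosomal RNA mt-Rnr2 held 1691, 1186 and 1075 CPM in KO day 13, 501, 420 and 430 CPM in KO day 7, 486, 744 and 770 CPM in WT day 13 and 668, 587 and 563 CPM in WT day 7 (interaction 1.41 ± 0.26, adjusted p = 0.119). It rose in KO by 1.55 ± 0.19 (adjusted p = 0.000149), and its WT days overlapped.

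The other genes named on this side had interactions of 0.67 to 2.39. Rdh9, a retinol dehydrogenase, held 116, 107 and 96.4 CPM in KO day 13, 62.7, 61.6 and 50.3 CPM in KO day 7, 32.3, 53.6 and 41.5 CPM in WT day 13 and 61.1, 66.4 and 115 CPM in WT day 7. Here the libraries of day 13 lay above those of day 7 in KO and below them in WT, with changes of 0.87 ± 0.27 in KO (adjusted p = 0.0494) and -0.93 ± 0.28 in WT (adjusted p = 0.13). Enpep, which encodes glutamyl aminopeptidase, had 1.47 ± 0.37 in KO and -0.93 ± 0.37 in WT. Wdr45, an autophagy gene, rose in KO by 1.20 ± 0.13 (adjusted p = 9.69e-05) against a WT change of 0.38 ± 0.13 (adjusted p = 0.161). Tmem243 (interaction 0.81), Lsm14b, an RNA-binding protein gene (0.67), and Pnmal2 (1.96) completed the 10 genes. All 10 rose in KO and none passed in WT, a pattern that choosing them by interaction p favours.

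**Figure D3:**
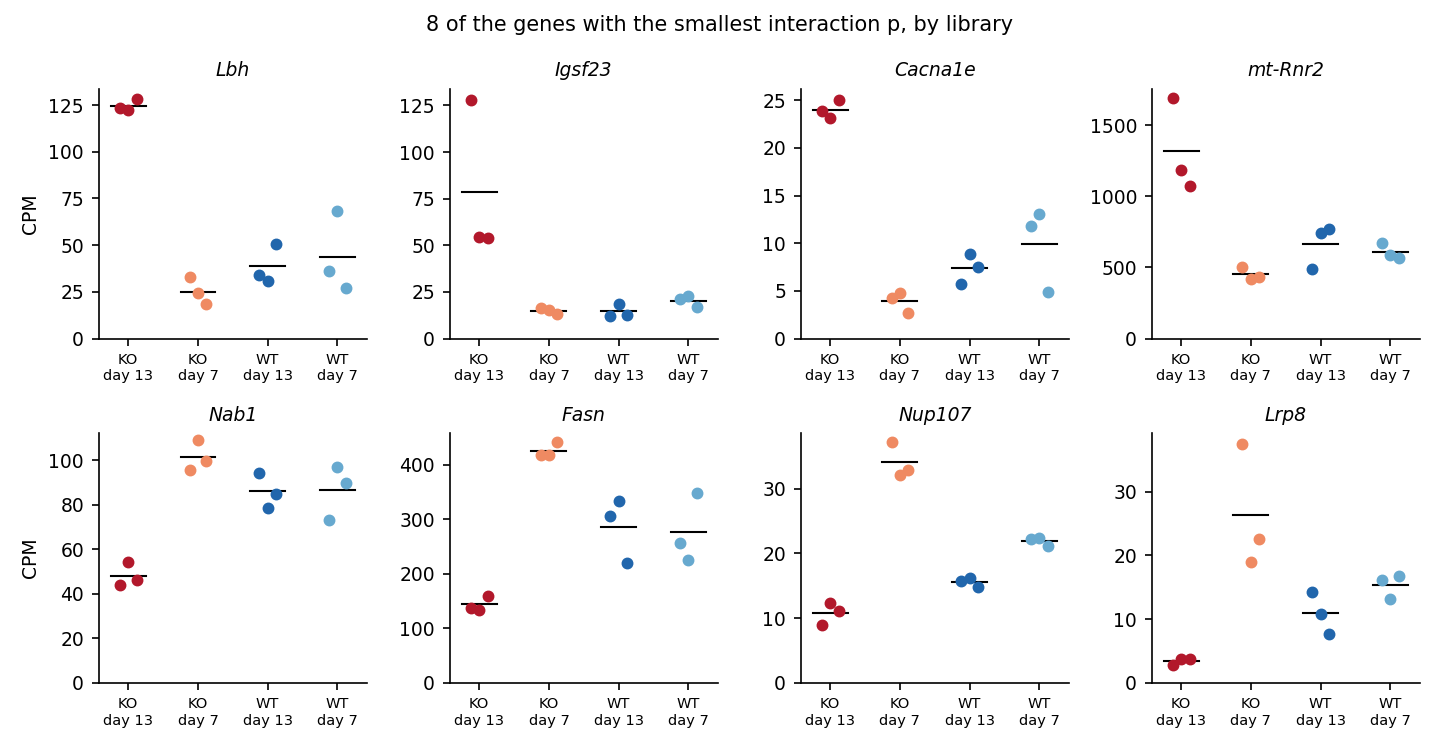
CPM in each library (points) and group means (bars) for 8 of the genes with the smallest interaction p, in KO day 13, KO day 7, WT day 13 and WT day 7 from left to right. In the upper row KO day 13 stands above the other groups, as for Lbh with 122 to 128 CPM; in the lower row it stands below them, as for Fasn with 134 to 159 CPM.

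On the lower side, the gene with the smallest p was Nab1, followed by Fasn. Fasn, which makes the fatty acid chains of membranes and storage fat, held 138, 134 and 159 CPM in KO day 13 and 418, 418 and 443 CPM in KO day 7. WT held 306, 334 and 220 CPM at day 13 and 257, 224 and 349 CPM at day 7. KO day 7 was the highest group and KO day 13 the lowest, and the WT days overlapped. Fasn fell in KO by 1.57 (± 0.20, adjusted p = 0.000186), with a WT change of 0.05 ± 0.20 and an interaction of -1.62 ± 0.28 (adjusted p = 0.0908).

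Lrp8, a receptor for lipoproteins and reelin, held 2.79, 3.66 and 3.81 CPM in KO day 13 and 37.5, 18.9 and 22.6 CPM in KO day 7. WT held 14.3, 10.9 and 7.65 CPM at day 13 and 16.1, 13.1 and 16.8 CPM at day 7. KO day 13 lay below every other library, close to the mean of 3.35 CPM in untreated KO and 2.62 CPM in untreated WT colon. Lrp8 fell in KO by 2.94 (± 0.32, adjusted p = 0.000103) with a WT change of -0.49 ± 0.30, which gives an interaction of -2.45 ± 0.43.

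Nab1, a corepressor of the EGR transcription factors, held 43.8, 54.2 and 46.5 CPM in KO day 13, 95.8, 109 and 99.7 CPM in KO day 7, 94.6, 78.7 and 84.9 CPM in WT day 13 and 73.1, 97.0 and 89.9 CPM in WT day 7. Its KO change was -1.07 ± 0.13 (adjusted p = 0.000142) and its WT change -0.01 ± 0.13. KO day 13 was alone in being near the untreated means of 51.8 CPM in KO and 50.01 CPM in WT. Nup107, a subunit of the nuclear pore, held 8.98, 12.3 and 11.04 CPM in KO day 13, 37.1, 32.2 and 32.9 CPM in KO day 7, 15.8, 16.3 and 14.7 CPM in WT day 13 and 22.1, 22.4 and 21.2 CPM in WT day 7. The libraries of day 13 lay below those of day 7 in both genotypes, by 1.66 in KO and 0.49 in WT on the log2 scale, and the WT difference did not pass (adjusted p = 0.124).

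The remaining 6 had interactions of -0.72 to -1.46. Chaf1a, a subunit of the chromatin assembly factor that loads histones behind the replication fork, held 9.54, 10.98 and 12.6 CPM in KO day 13, 55.3, 34.6 and 35.1 CPM in KO day 7, 19.7, 15.2 and 18.5 CPM in WT day 13 and 28.7, 19.5 and 24.8 CPM in WT day 7 (interaction -1.46 ± 0.27, adjusted p = 0.115). The KO days were apart, and the WT days overlapped slightly. Pprc1, a coactivator of nuclear genes for mitochondria, had an interaction of -1.24, and Urb1, which acts in assembly of the large ribosomal subunit, -1.11. Paxip1, a protein of the DNA damage response, had -0.78, the forkhead factor gene Foxk2 -0.73 and the N-terminal acetyltransferase subunit gene Naa25 -0.72. All 10 genes on this side fell in KO and none passed in WT, which their choice by interaction p again favours.

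Cholesterol synthesis genes fell together in KO and showed no common change in WT. The list holds 15 genes of the mevalonate pathway and its control, which the transcription factor SREBP raises when membrane sterol is short. Of the 15, 12 fell in KO, where 8.61% of all genes fell, and none rose, and none passed in WT, also without adjustment. Their median change was -1.52 in KO and -0.06 in WT, and their median interaction was -1.50, against -0.03 over all genes. All 15 had a lower interaction at an unadjusted p under 0.05, where 7.31% of all genes did, none passed after adjustment, and DESeq2 called 3, against 1.23% of all genes. The WT median was near 0 and changed sign with the library left out, from -0.37 without WT day 13 replicate 2 to 0.33 without WT day 7 replicate 3.

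Summed over the list, KO libraries of day 13 held 1242, 1290 and 1364 CPM and KO libraries of day 7 held 3420, 3813 and 3695 CPM. WT libraries held 2507, 3670 and 1907 CPM at day 13 and 2509, 1809 and 4155 CPM at day 7. The KO groups were tight and far apart, and the WT libraries spread over both days without separating them. The KO days did not overlap for any of the 15 genes, as for 38.9% of all genes, and the WT days overlapped for each of the 15, where 14.9% of all genes were apart. Untreated libraries, for scale, summed to 1512 to 3034 CPM in KO and 1669 to 2337 CPM in WT.

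Fdft1, squalene synthase, held 68.7, 72.3 and 74.1 CPM in KO day 13, 181, 200 and 234 CPM in KO day 7, 155, 251 and 122 CPM in WT day 13 and 172, 119 and 243 CPM in WT day 7. KO day 13 was below all other libraries, and the WT days overlapped. It fell in KO by 1.52 (± 0.31, adjusted p = 0.00445), against a WT change of -0.01 ± 0.30, and the interaction was -1.50 ± 0.43 (adjusted p = 0.21). Sqle, squalene epoxidase, fell in KO by 1.60 and had an interaction of -1.40 ± 0.43 (adjusted p = 0.24).

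Hmgcs1, an early enzyme of the pathway, held 168, 203 and 163 CPM in KO day 13 and 621, 700 and 568 CPM in KO day 7. WT held 352, 635 and 275 CPM at day 13 and 345, 253 and 718 CPM at day 7. Its KO fall of 1.82 on the log2 scale passed (adjusted p = 0.00683). Of the other members Lss, Cyp51, Fdps, Mvd, Msmo1, Mvk and Insig1 also fell in KO. Among those that did not pass were Idi1 (KO change -1.29, adjusted p = 0.0522) and Dhcr7 (-0.65, adjusted p = 0.0561). The median interaction of the list ran from -1.89 without WT day 7 replicate 3 to -1.16 over the alternatives, and was -1.70 with the Y-linked covariate.

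**Figure D4:**
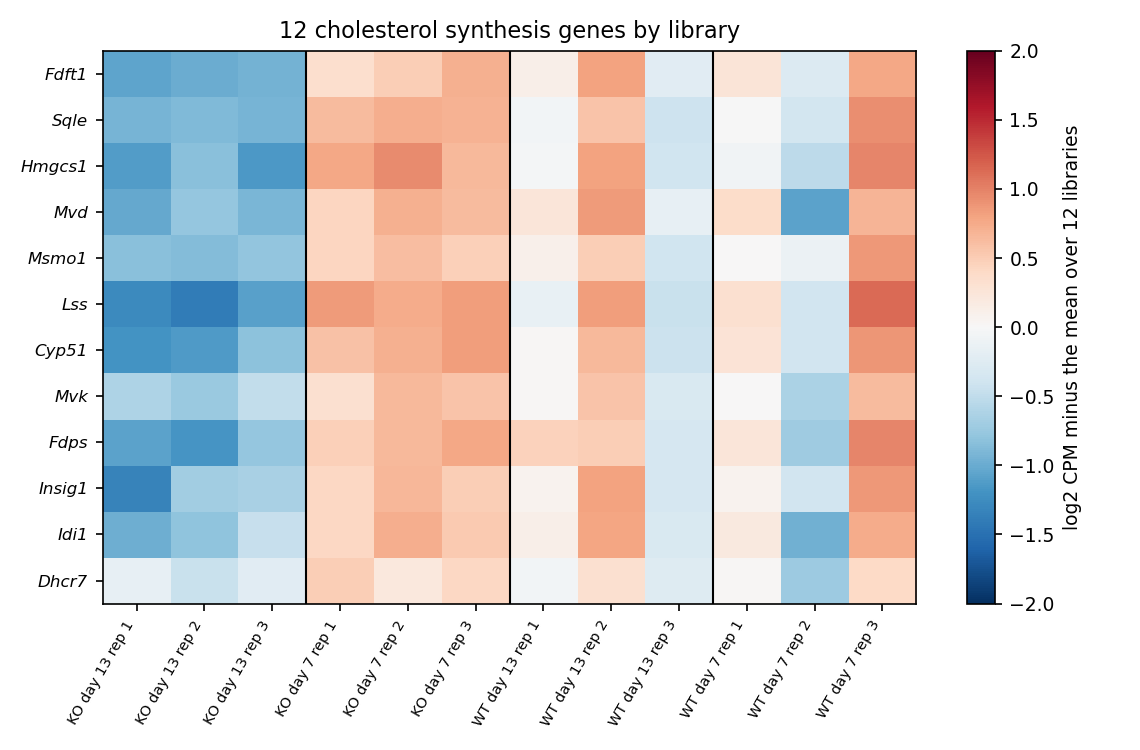
Log2 CPM of 12 of the 15 cholesterol synthesis genes (rows, by interaction p) in the 12 libraries (columns), as the difference from each gene's mean over the 12 libraries. The 3 KO libraries of day 13 are low and the 3 of day 7 high in nearly all rows, while WT day 13 replicate 2 and WT day 7 replicate 3 are the high libraries of WT, with sums of 3670 and 4155 CPM over the whole list.

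Promoter windows of 300 bases, from 250 before to 50 after a RefSeq start in GRCm38.p6, were read for 9 of the 15 genes (11 windows). They are shown because these genes moved together in KO, and the letters searched were CCAAT (or ATTGG), which NF-Y binds, and CACCCCAC (or GTGGGGTG), the core of the sterol element that SREBP binds. The first was found in 9 of the 11 windows, covering 9 of 9 genes, in 37.4% of all 32851 windows and in 37.0% of windows of tested genes. The second was found in the window of Hmgcs1 only, among the 9 genes, in 2.87% of all windows and in 3.22% of windows of tested genes. The windows of the 2 members with the smallest interaction p among those read, Hmgcs1 (chr13:119690101-119690400, plus strand) and Mvd (chr8:122443373-122443672, minus strand), follow with all such matches in capitals, and a match is a description of letters only.
Hmgcs1: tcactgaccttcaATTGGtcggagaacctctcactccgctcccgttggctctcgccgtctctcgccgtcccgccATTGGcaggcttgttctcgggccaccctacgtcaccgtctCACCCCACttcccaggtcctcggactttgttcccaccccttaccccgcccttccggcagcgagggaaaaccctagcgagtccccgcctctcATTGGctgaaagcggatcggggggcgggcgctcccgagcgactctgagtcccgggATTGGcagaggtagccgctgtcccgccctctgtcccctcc
Mvd: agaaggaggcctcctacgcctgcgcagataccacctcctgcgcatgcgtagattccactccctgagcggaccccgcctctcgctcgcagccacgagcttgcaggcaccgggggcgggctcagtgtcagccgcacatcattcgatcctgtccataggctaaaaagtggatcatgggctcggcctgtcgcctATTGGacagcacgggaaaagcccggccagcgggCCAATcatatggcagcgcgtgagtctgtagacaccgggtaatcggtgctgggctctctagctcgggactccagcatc

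Ribosome biogenesis genes fell in KO, and in WT most of their values were also negative. Of 18 genes 16 fell in KO, against 8.61% of all genes, with a median change of -1.02. In WT the median was -0.49, none passed, and 14 were lower at an unadjusted p under 0.05, where 9.03% of all genes were. The median interaction was -0.65, with 14 of 18 lower at an unadjusted p under 0.05, where 7.31% of all genes were, none after adjustment and 3 by DESeq2, which called 1.23% of all genes lower. The days did not overlap for 17 genes in KO (38.9% of all genes) and 15 in WT (14.9% of all genes).

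Nop56, a core protein of the particles that guide ribosomal RNA methylation, held 40.3, 38.3 and 52.5 CPM in KO day 13, 142, 106 and 161 CPM in KO day 7, 64.5, 47.8 and 58.1 CPM in WT day 13 and 88.9, 107 and 90.8 CPM in WT day 7. KO day 7 was high and the days were apart in both genotypes. Its KO fall was 1.64 (adjusted p = 9.67e-05), its WT change -0.75 ± 0.17 (adjusted p = 0.0832) and its interaction -0.89 ± 0.24 (adjusted p = 0.19). Gnl3, the nucleolar GTPase nucleostemin, held 18.5, 18.4 and 27.5 CPM in KO day 13, 63.5, 45.8 and 70.3 CPM in KO day 7, 28.6, 27.6 and 26.9 CPM in WT day 13 and 38.7, 44.4 and 39.9 CPM in WT day 7 (interaction -0.92 ± 0.23, adjusted p = 0.171). Day 13 lay below day 7 in both genotypes. Rrp12 and Nolc1, nucleolar factors of ribosome assembly, had interactions of -1.03 ± 0.26 and -0.88 ± 0.25. Npm1 and Utp20 were the members that did not pass in KO, with changes of -0.41 (adjusted p = 0.0879) and -0.47 (adjusted p = 0.482). Summed over the list the 12 libraries held 924.3 to 1239 CPM in KO day 13, 1720 to 2093 in KO day 7, 1083 to 1214 in WT day 13 and 1390 to 1602 in WT day 7.

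Cell cycle genes also fell in KO, among them all 6 subunits of the MCM replication helicase on the list. Of 21 genes 12 fell in KO (median -1.58), against 8.61% of all genes. None passed in WT (median -0.59), where 9 were lower at an unadjusted p under 0.05, against 9.03% of all genes. The median interaction was -1.13. It was lower at an unadjusted p under 0.05 for 9 genes, against 7.31% of all genes, and by DESeq2 for 4, against 1.23%. Over the alternatives the median interaction ran from -1.53 to -0.71, the last with the Y-linked covariate, and the WT median was -0.03 without WT day 7 replicate 1.

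Mcm5, a subunit of the helicase that opens replication origins, held 14.9, 16.1 and 27.0 CPM in KO day 13, 92.6, 68.7 and 67.1 CPM in KO day 7, 29.7, 27.2 and 29.6 CPM in WT day 13 and 55.2, 34.4 and 46.2 CPM in WT day 7. KO day 7 was the highest group, and the days were apart in both genotypes. Mcm5 fell in KO by 1.98 (± 0.22, adjusted p = 0.000104), and its interaction was -1.33 ± 0.30 (adjusted p = 0.141). Rrm2, which supplies deoxyribonucleotides, held 7.49, 9.66 and 10.2 CPM in KO day 13, 61.1, 39.0 and 48.2 CPM in KO day 7, 20.1, 12.7 and 20.1 CPM in WT day 13 and 39.5, 30.0 and 31.5 CPM in WT day 7 (interaction -1.50 ± 0.40, adjusted p = 0.19). The days were again apart in both genotypes. Mcm2 and Mcm3 had interactions of -1.04 ± 0.28 and -1.13 ± 0.30.

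Of the 21 genes 9 did not pass in KO. Mki67, the common marker of dividing cells, held 70.7, 176 and 99.4 CPM in KO day 13, 386, 377 and 205 CPM in KO day 7, 121, 162 and 96.2 CPM in WT day 13 and 217, 85.8 and 109 CPM in WT day 7. The KO days were apart and the WT days overlapped. Its KO change of -1.49 ± 0.59 did not pass (adjusted p = 0.117), and the interaction was -1.37 ± 0.82 (adjusted p = 0.551). Ccnb1, Ccna2, Cdk1, Ccnb2, Birc5, Bub1, Bub1b and Aurka likewise did not pass in KO, with changes of -0.94 to -1.72, while the mitotic genes Top2a (-1.80, adjusted p = 0.0281) and Plk1 (-1.11, adjusted p = 0.0456) passed.

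Windows were read for 18 of the 21 cell cycle genes (19 windows). CCAAT was found in 17 windows covering 16 genes, against 37.4% of all windows and 37.0% of windows of tested genes. TTCCCGC (or GCGGGAA), the core of an E2F site, was found in 3 windows of 2 genes, Mcm3 and Mcm7. It occurred in 4.60% of all windows and 7.41% of windows of tested genes. The window of Mcm5 (chr8:75109259-75109558, plus strand), the member with the smallest interaction p, is given with CCAAT in capitals. For ribosome biogenesis, CACGTG, the E-box that MYC binds, was found for 3 of 13 genes read (Nop2, Pes1 and Utp20). It occurred in 7.15% of all windows and 9.26% of windows of tested genes.
Mcm5: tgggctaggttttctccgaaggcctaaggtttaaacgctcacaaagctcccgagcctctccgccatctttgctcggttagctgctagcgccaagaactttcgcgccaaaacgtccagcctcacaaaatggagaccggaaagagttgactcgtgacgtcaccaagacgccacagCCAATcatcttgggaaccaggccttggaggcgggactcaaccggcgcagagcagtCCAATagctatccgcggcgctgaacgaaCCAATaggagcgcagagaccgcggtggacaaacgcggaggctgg

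Of 14 core clock genes 7 rose in KO, where 4.22% of all genes rose. The list holds the transcription factors and repressors of the circadian feedback loop, whose RNA swings over the day, and the time of day of sampling was not given. The median change was 1.45 in KO, and none passed in WT (median 0.70), where 6 were higher at an unadjusted p under 0.05 against 7.88% of all genes. The median interaction was 0.53, and 1 gene, Ciart, had a higher interaction at an unadjusted p under 0.05, against 4.43% of all genes. That median was 0.26 without WT day 7 replicate 1 and 0.34 without KO day 13 replicate 1. The WT median was 1.20 without WT day 7 replicate 1, and 0.44 and 0.43 without WT day 13 replicate 3 and WT day 7 replicate 3.

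Dbp, an output factor of the clock, held 155, 149 and 152 CPM in KO day 13, 21.7, 32.0 and 10.5 CPM in KO day 7, 23.2, 61.4 and 83.2 CPM in WT day 13 and 43.7, 15.3 and 3.68 CPM in WT day 7. KO day 13 was tight and above all other libraries, while WT libraries differed several-fold within a day and overlapped between days. It rose in KO by 2.83 ± 0.65 (adjusted p = 0.00917), with a WT change of 1.42 ± 0.62 (adjusted p = 0.261) and an interaction of 1.41 ± 0.86 (adjusted p = 0.559). Ciart, a repressor of the loop, held 24.5, 22.3 and 22.6 CPM in KO day 13, 4.72, 6.99 and 3.84 CPM in KO day 7, 6.50, 11.6 and 12.5 CPM in WT day 13 and 12.8, 2.96 and 3.78 CPM in WT day 7 (interaction 1.52 ± 0.59, adjusted p = 0.334). The KO days were apart and the WT days overlapped. Cry2 and Nr1d1, both repressors of the loop, had interactions of 0.92 ± 0.45 and 0.65 ± 0.36. Arntl and Npas2, activators that peak opposite to Dbp, had KO changes of -0.86 and -0.59 and WT changes of -0.66 and -0.91, none of which passed.

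In promoter windows of clock genes, CACGTG, the E-box of the CLOCK complex, was found for 5 of the 13 genes read (Bhlhe41, Ciart, Cry1, Per1 and Tef). That was in 6 of 18 windows, against 7.15% of all windows and 9.26% of windows of tested genes. TTATGTAA (or TTACATAA), the D-box that DBP and TEF bind, was found for Per3 only, against 0.938% of all windows and 0.576% of windows of tested genes. The window of Ciart (chr3:95882179-95882478, minus strand), the member with the smallest interaction p, holds 3 E-boxes, in capitals.
Ciart: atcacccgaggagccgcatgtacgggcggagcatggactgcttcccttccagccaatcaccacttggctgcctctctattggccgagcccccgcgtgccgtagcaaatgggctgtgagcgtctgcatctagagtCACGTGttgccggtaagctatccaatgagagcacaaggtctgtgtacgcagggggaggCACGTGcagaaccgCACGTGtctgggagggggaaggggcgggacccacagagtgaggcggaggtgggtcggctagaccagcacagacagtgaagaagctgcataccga

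Smooth muscle and enteric nerve genes had interactions of the opposite sign, with the larger median changes in WT. The 10 smooth muscle genes had a median change of 0.14 in KO and -1.38 in WT, and none passed in either genotype. In WT 10 of 10 were lower at an unadjusted p under 0.05, where 9.03% of all genes were. Their median interaction was 1.38, with 8 of 10 higher at an unadjusted p under 0.05, where 4.43% of all genes were. The 12 enteric neuron and glia genes had medians of 0.09 in KO and -1.59 in WT and a median interaction of 1.54. Of the 12, 7 were higher at an unadjusted p under 0.05, against the same 4.43% of all genes. Without WT day 7 replicate 2 the median interactions were 0.91 and 0.87 and the WT medians -0.66 and -0.78.

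Des, the intermediate filament of muscle, held 804, 430 and 501 CPM in KO day 13, 718, 618 and 641 CPM in KO day 7, 268, 385 and 444 CPM in WT day 13 and 568, 1689 and 1111 CPM in WT day 7. The KO days overlapped and the WT days did not, with WT day 7 replicate 2 the highest. Its WT change was -1.62 ± 0.32 (adjusted p = 0.0682) and its interaction 1.43 ± 0.44 (adjusted p = 0.245). Synm, Tagln and Cnn1, also of the contractile apparatus, had interactions of 1.84, 1.45 and 1.28. Of nerve genes, Uchl1, a neuronal hydrolase, held 7.73, 7.19 and 8.58 CPM in KO day 13, 7.08, 5.77 and 8.43 CPM in KO day 7, 5.82, 6.88 and 8.72 CPM in WT day 13 and 14.7, 33.4 and 10.6 CPM in WT day 7 (interaction 1.59 ± 0.49, adjusted p = 0.238). Here all WT libraries of day 7 lay above the other 9 libraries. Chat and Snap25, markers of enteric neurons, had interactions of 2.07 and 1.49, and Chat stayed at 1.48 CPM or below in all 12 libraries. The part of this muscle and nerve RNA in other differences was not tested.

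**Figure D5:**
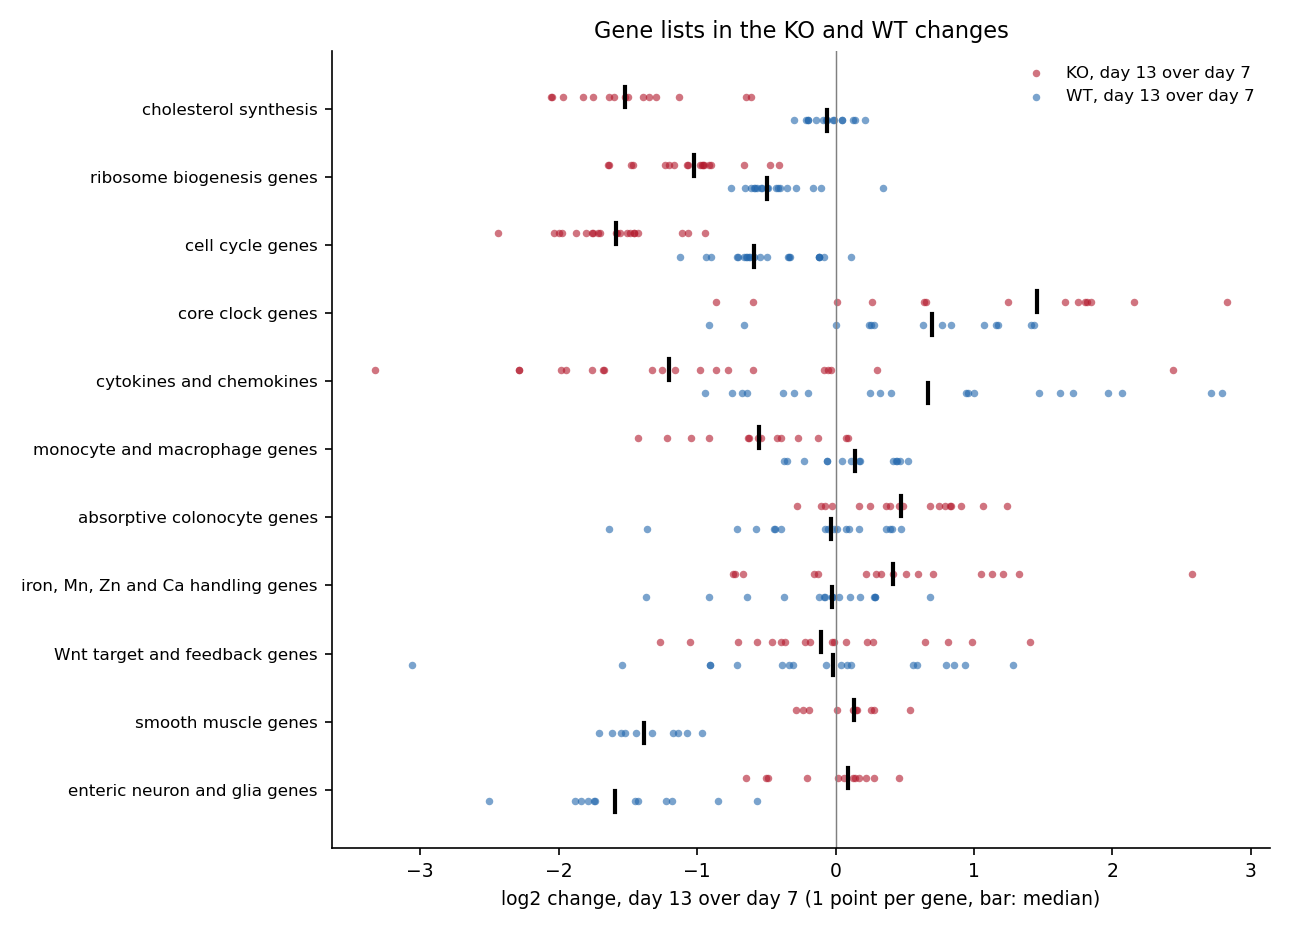
Log2 change at day 13 over day 7 of each gene (points) and the list median (bars) for 11 gene lists, KO above WT in each row. Cholesterol synthesis had medians of -1.52 in KO and -0.06 in WT, and smooth muscle 0.14 in KO and -1.38 in WT. No member of either list passed for the interaction, and the smooth muscle WT median was -0.66 without WT day 7 replicate 2.

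Cytokines and chemokines had a lower median change in KO than in WT, with wide scatter. Over 20 genes the median change was -1.20 in KO and 0.67 in WT, with a median interaction of -1.69; none passed in either genotype, and 3 had a lower interaction at an unadjusted p under 0.05, which is 3 of 20 against 7.31% of all genes. The WT median turned to -0.29 without WT day 13 replicate 1 and to -0.09 without replicate 3, and was 1.17 without replicate 2 and 1.56 without WT day 7 replicate 2. The KO median was -0.59 without KO day 7 replicate 3, and the median interaction stayed between -2.31 and -1.07 over the alternatives. Il1b, a central inflammatory cytokine, held 0.698, 0.971 and 0.373 CPM in KO day 13, 1.99, 1.42 and 3.10 CPM in KO day 7, 52.4, 6.08 and 94.6 CPM in WT day 13 and 22.5, 48.5 and 8.64 CPM in WT day 7. Every KO library was below every WT library, the KO days were apart, and the WT days overlapped with wide differences within day 13. Its interaction was -2.62 ± 1.11 (adjusted p = 0.371). Cxcl10, a chemokine induced by interferon, had -3.66 ± 1.39, Cxcl2, which draws neutrophils, -3.46 ± 1.58 and Ccl2, which draws monocytes, -1.93 ± 1.005. These values rest on low KO levels and on single libraries. Cxcl2 held 0.465, 0.0882 and 0.0746 CPM in KO day 13 and 0.185, 0.203 and 2.08 CPM in KO day 7. Ccl2 stayed at 1.16 CPM or below in KO. Cxcl10 stayed at 3.66 CPM or below in KO and held 86.5, 5.19 and 7.14 CPM in WT day 13.

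WT day 13 replicates 1 and 3 carried most of the cytokine RNA of that group. The list summed to 27.3, 15.04 and 13.9 CPM in KO day 13, 28.0, 25.4 and 57.8 CPM in KO day 7, 454.0, 61.1 and 465.5 CPM in WT day 13 and 101.5, 280.8 and 155.0 CPM in WT day 7. KO libraries of both days lay below all WT libraries, and WT day 13 replicate 2 was lower than every WT library of day 7. Replicate 3 of that group is the library with squamous genes, whose part in these values was not tested. Of 14 monocyte and macrophage genes 2 fell in KO, where 8.61% of all genes fell. They were Adgre1 (F4/80), by 1.43 (adjusted p = 0.0149), and Mrc1, the mannose receptor, by 0.92 (adjusted p = 0.0461). The median interaction of the list was -0.58. A lower interaction at an unadjusted p under 0.05 was found for 2 genes, Fcgr1 and Adgre1, against 7.31% of all genes. The neutrophil genes had a median interaction of -0.81 with no gene past even the unadjusted threshold, and 1 library could move it widely, to -2.54 without KO day 13 replicate 1, -2.17 without WT day 7 replicate 2 and -0.14 without WT day 13 replicate 3. Their KO median of 0.58 turned to -0.996 without KO day 13 replicate 1. S100a8, a neutrophil calcium-binding protein, had an interaction of 0.30 ± 1.48.

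Absorptive colonocyte genes and genes of metal handling had positive medians. The 18 absorptive genes had median changes of 0.48 in KO and -0.03 in WT and a median interaction of 0.59, with none past the threshold and 2 higher at an unadjusted p under 0.05, against 4.43% of all genes. The median interaction was 0.39 without WT day 7 replicate 3 and 0.18 with the Y-linked covariate. Slc9a2, a sodium-proton exchanger of the brush border, held 310, 341 and 367 CPM in KO day 13, 167, 202 and 175 CPM in KO day 7, 121, 269 and 157 CPM in WT day 13 and 210, 142 and 226 CPM in WT day 7. The KO days were apart and the WT days overlapped, with an interaction of 0.98 (adjusted p = 0.381). Car4, a carbonic anhydrase of the surface epithelium, and Slc26a3, the chloride-bicarbonate exchanger, had interactions of 1.03 and 1.19.

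Of 17 genes for iron, manganese, zinc and calcium, 1 rose in KO, close to the 4.22% of all genes that rose. This was Slc40a1, the iron exporter ferroportin. It held 832, 458 and 719 CPM in KO day 13, 238, 346 and 287 CPM in KO day 7, 213, 319 and 221 CPM in WT day 13 and 216, 134 and 269 CPM in WT day 7. KO day 13 lay above all other libraries, with a KO rise of 1.21 (adjusted p = 0.0101), a WT change of 0.28 and an interaction of 0.92 (adjusted p = 0.371). S100g, an intestinal calcium-binding protein, held 200, 104 and 196 CPM in KO day 13, 32.1, 25.1 and 26.7 CPM in KO day 7, 8.19, 4.06 and 3.45 CPM in WT day 13 and 0.672, 1.01 and 28.0 CPM in WT day 7. Its interaction of 3.49 turned to -0.12 without WT day 7 replicate 3, so that 1 library set its sign. Fth1, the ferritin heavy chain, had an interaction of 0.53 (adjusted p = 0.399). Over the list the median interaction was 0.37, and 0.21 without WT day 7 replicate 3, with 3 of 17 genes higher at an unadjusted p under 0.05, against 4.43% of all genes.

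Wnt target and feedback genes, the nearest readout of the targeted pathway, had no direction common to all members, and part of the list was lower at day 13. Over 18 genes the median change was -0.10 in KO and -0.02 in WT and the median interaction -0.30, with 3 genes higher and none lower at an unadjusted p under 0.05, against 4.43% and 7.31% of all genes. That median was 0.01 without WT day 13 replicate 3 and -0.03 without WT day 7 replicate 3. At an unadjusted p under 0.05, 5 genes were lower and 1 higher in KO, against 2698 and 1988 of all 18102 genes. In WT 6 were lower and 1 higher, against 9.03% and 7.88% of all genes. The list summed to 368.2 to 380.2 CPM in KO day 13 and 477.9 to 589.2 CPM in KO day 7. The WT days overlapped, with 352.8 to 475.3 CPM at day 13 and 466.1 to 562.4 CPM at day 7. In KO, where 8.61% of all genes fell, Myc fell by 1.05 (adjusted p = 0.015), Ccnd1, a cyclin of the entry into the cell cycle, by 1.27 (adjusted p = 0.0017) and Ephb2, a receptor that sorts crypt cells, by 0.70 (adjusted p = 0.00163). Their WT changes were -0.91 (adjusted p = 0.12), -0.71 (adjusted p = 0.14) and -0.34 (adjusted p = 0.191), and their interactions -0.14, -0.56 and -0.37.

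Axin2, which beta-catenin induces and which restrains Wnt signalling in turn, held 30.8, 24.04 and 22.2 CPM in KO day 13, 35.6, 31.8 and 38.6 CPM in KO day 7, 17.2, 19.6 and 12.03 CPM in WT day 13 and 16.5, 15.2 and 19.7 CPM in WT day 7. The KO libraries lay above the WT libraries on both days, the KO days were apart, the WT days overlapped, and the interaction was -0.39 ± 0.25 (adjusted p = 0.582). Lgr5, the marker of crypt stem cells, had an interaction of -0.30 ± 1.01 and stayed at 5.78 CPM or below in all 12 libraries. The 3 members with a higher interaction before adjustment were the secreted antagonist gene Dkk2 (2.69 ± 0.69, adjusted p = 0.176) and the feedback inhibitor genes Nkd2 (1.72) and Nkd1 (1.81). Muc2, the goblet cell mucin, had an interaction of -0.16 ± 0.91 (adjusted p = 0.974).

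The 11 genes called in WT all had an adjusted p of 0.0444. None of the 11 passed when any WT library of day 13 was left out (adjusted p of 0.065 to 0.173), 9 passed without WT day 7 replicate 1, 6 without replicate 2 and 2 without replicate 3. Foxa1, a forkhead factor of gut epithelium, held 101, 102 and 92.2 CPM in KO day 13, 69.9, 81.3 and 71.4 CPM in KO day 7, 102, 94.8 and 94.2 CPM in WT day 13 and 69.4, 60.6 and 67.4 CPM in WT day 7. The days were apart in both genotypes, with a rise of 0.41 in KO and 0.56 in WT. Dusp16, a phosphatase of stress kinases, Sh3bp5l and Nipal3 also rose in WT, by 0.52 to 0.70, and each rose in KO as well. Of the 6 that fell in WT, Dut, which removes dUTP before DNA synthesis, Pbdc1 and the nucleolar gene Lyar also fell in KO, by 1.38, 0.98 and 1.22.

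The other 3 genes that fell in WT did not pass in KO. Dkk2 held 0.512, 0.353 and 0.373 CPM in KO day 13, 0.786, 0.488 and 0.324 CPM in KO day 7, 0.380, 0.362 and 0.373 CPM in WT day 13 and 3.74, 4.62 and 1.08 CPM in WT day 7, so that WT day 7 alone was raised. It fell in WT by 3.06, Kcnq3, a potassium channel of neurons, by 2.35 and Hand1, a transcription factor of gut mesenchyme, by 2.07. Their KO changes were -0.37, 0.04 and -0.38 and their interactions 2.69, 2.39 and 1.69 (adjusted p = 0.176, 0.143 and 0.202). All 3 were highest in WT day 7 replicate 2, the library rich in smooth muscle. Without it the WT changes of Dkk2 and Kcnq3 were -2.69 and -1.83 and no longer passed (adjusted p = 0.0571 and 0.0572), and that of Hand1 was -1.47 (adjusted p = 0.0424); none of the 3 passed without a WT library of day 13. With a Y-linked covariate no gene passed in WT. In WT that covariate separates the days completely. Its slope comes mainly from KO day 7 and untreated WT, where libraries with and without Y-linked RNA occur together. That the same slope holds for WT day 7 and day 13 was not tested. This fit therefore does not settle whether a WT difference goes with day or with sex.

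Of 12 ligand and receptor genes of the epidermal growth factor family, 2 rose and 1 fell in KO, against 4.22% and 8.61% of all genes. The median KO change of the list was -0.34, and 10 of the 12 genes had a negative value. The receptors Erbb2 and Erbb3, against most of the list, rose in KO by 1.06 (adjusted p = 0.000891) and 1.15 (adjusted p = 0.00067). The ligand gene Hbegf fell by 1.59 (adjusted p = 0.0493). WT changes were 0.81, 0.82 and -0.94, none of which passed, and the interactions were 0.25, 0.34 and -0.66. Erbb3 held 482, 468 and 539 CPM in KO day 13, 274, 218 and 178 CPM in KO day 7, 421, 409 and 268 CPM in WT day 13 and 214, 196 and 212 CPM in WT day 7. Day 13 lay above day 7 in both genotypes for it.

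Among genes with the largest KO falls that passed, beside Lrp8, were Krt36, a hair-type keratin gene, Adamts4, a protease of matrix proteoglycans, and Pla2g2a, a secreted phospholipase which the annotation lists as a polymorphic pseudogene. Krt36 held 2.28, 1.68 and 1.42 CPM in KO day 13, 6.01, 9.31 and 25.6 CPM in KO day 7, 8.86, 5.35 and 6.39 CPM in WT day 13 and 4.96, 13.8 and 18.1 CPM in WT day 7. KO day 13 was the lowest group, and the WT days overlapped (KO change -2.93 ± 0.56, adjusted p = 0.00292; interaction -2.09 ± 0.74, adjusted p = 0.29). Adamts4 fell in KO by 3.30, Krtap13, a hair keratin-associated protein gene, by 3.25 and Pla2g2a by 2.81, with interactions of -1.69, -2.50 and -1.27. Of those with the largest KO rises, Cnpy1 rose by 2.92 (adjusted p = 0.0109; interaction 1.47) and the sarcomere gene Ttn by 3.50 (adjusted p = 0.0222), where KO day 13 replicate 1 held 8.94 CPM and the other 2 libraries 0.706 and 0.597 CPM.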

How the data were processed

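Colon RNA came from a Trizol extraction followed by standard Illumina library preparation, per the labels' protocols. The submitters' processing notes name STAR 2.7.6a, RSEM 1.3.1 and the build GRCm38. The sources used here give neither the annotation release nor the strand setting. For each library the authors deposited the expected counts that RSEM estimated for 55487 genes. RSEM divides a read that matches several genes among them, and 11.0% to 11.8% of the values per library were not whole, so values of near-identical copies and of overlapping or antisense genes are uncertain. A GENCODE M21 table gave symbols and positions, and the 346 genes without a symbol took up to 0.074% of a library's counts.

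Expected counts were rounded. edgeR 4.0.16 (R 4.3.3, limma 3.58.1) fitted 18 colon libraries in 6 groups with TMM normalization, filterByExpr (at least 10 counts, total of at least 15) and robust quasi-likelihood F tests, adjusted by Benjamini-Hochberg over 18102 genes with a threshold of 0.05. Every adjusted p is from this test unless DESeq2 1.42.0 is named. The SE is the log2 change divided by the square root of F. The procedure was tested on simulated counts drawn with the same spread for every gene and group. The real groups differed in spread, so that test does not show how often real differences would be called here. Replicates of a group differed by a chi-square of 16.0 to 197.9 per gene over the 18 libraries (17.2 to 109.0 in the 12 compared), where sampling noise alone gives about 1; untreated KO replicate 3 stood farthest from its group (176.8 and 197.9). Replicate numbers follow accession order and pair no libraries.

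The comparison, gene lists, named genes and alternatives were chosen with earlier results of these data known. Named genes are Axin1, 10 per direction with the smallest interaction p (none passed; mean of at least 2 CPM in the highest group, no predicted, clone or pseudogene name), up to 5 per direction with the largest change that passed in each genotype with no overlap of libraries, up to 4 members with the smallest interaction p of each list described, and 8 general genes of the question. Other members of a list that are named, as those that passed, were chosen after seeing their values. Some named genes and list members are not reported here. The alternatives comprised DESeq2, RLE size factors, other filters, only the 12 libraries, a covariate of Y-linked expression, leaving out the 4 colon libraries whose Illumina sample numbers repeat, and leaving out each library; 4 libraries with RNA of other tissue or of an interferon response were left out as an alternative chosen after seeing the data.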

Additional observations from a re-analysis of the deposited data

How the results depend on the processing

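The interaction called 0 genes, and 0 also with RLE size factors, either other filter, only the 12 libraries, the Y-linked covariate (smallest adjusted p 0.871) or the libraries with repeated Illumina sample numbers left out. DESeq2 called 282. Leaving out 4 libraries with RNA of other tissue or of an interferon response, chosen after seeing the data, gave 2 (Lbh and Qpct), and leaving out each library in turn gave 0 to 2: without KO day 13 replicate 1 the 2 were Qpct and the predicted gene Gm6969, and without WT day 7 replicate 3 they were Lbh and Cacna1e. The KO count of 2321 was 1493 without the libraries with repeated numbers and 1358 to 2763 with a library left out; it was 1358 and 1436 without KO day 13 replicates 1 and 2, and 1517 and 1394 without KO day 7 replicates 1 and 3. The WT count of 11 was 751 with DESeq2, 28 with the stricter filter, 0 with no filter, with only the 12 libraries, with the Y-linked covariate and without the libraries with repeated numbers, and 0 to 78 with a library left out, the 78 without WT day 7 replicate 1 and 0 when any of 8 libraries was left out. The 15 called in WT after the 4 libraries were left out shared 0 genes with the 11. The interaction of S100g ran from -0.12 without WT day 7 replicate 3, a reversal, to 4.05 without WT day 7 replicate 1. The causes of these shifts were not tested. No paired analysis was possible because the labels give no replicate numbers that groups share.

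The median SE of the interaction was 0.38 on the log2 scale, which limits the precision of a single gene, and it differed between genes. The WT difference between days and sex cannot be told apart. The Y-linked covariate goes with day in WT and takes its slope mainly from other groups, so fits with it do not settle this either. In KO, day cannot be told apart from the pseudogene pattern given below. Expected counts carry no measure of their own estimation error.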

Other observations

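A few pseudogenes and a lincRNA were high in the same 5 of the 12 libraries. Rps3a3, a processed pseudogene copy of a ribosomal protein gene (chr13:108670603-108671397, plus strand, GRCm38), held 162, 307 and 168 CPM in KO day 13, 1.53, 1.301 and 2.64 CPM in KO day 7, 2.07, 2.33 and 308 CPM in WT day 13 and 2.44, 1.89 and 119 CPM in WT day 7, and 1.56 to 2.95 CPM in the untreated libraries. All 3 KO libraries of day 13, WT day 13 replicate 3 and WT day 7 replicate 3 were thus high and the other 7 low, so the KO rise of 6.87 (adjusted p = 0.0278) follows a pattern that does not follow the groups in WT. In KO the high libraries were all those of day 13 and none of day 7. What underlies the pattern therefore cannot be told apart from day in KO, nor in the interaction. Rps3a2, another copy on chromosome 14, held 139, 295 and 176 CPM in KO day 13, 21.8, 22.2 and 28.0 CPM in KO day 7, 22.6, 33.7 and 278 CPM in WT day 13 and 30.5, 16.6 and 106 CPM in WT day 7, high in the same 5 libraries. The lincRNA Gm42743 and Hist1h2al, annotated as a processed pseudogene, were likewise at 2.06 CPM or above in these 5 and at 0.0463 CPM or below in the other 7. The parent gene Rps3a1 held 606, 365 and 691 CPM in KO day 13, 601, 672 and 806 CPM in KO day 7, 706, 999 and 317 CPM in WT day 13 and 978, 445 and 459 CPM in WT day 7, and its values did not separate the same libraries. Reads of near-identical copies can be assigned to either, so these levels are uncertain, and no cause was tested.

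Zfp264, annotated as a transcribed unprocessed pseudogene, held 2.61, 1.46 and 2.46 CPM in KO day 13, was at 0 in KO day 7 and in WT day 13, and reached 0.0491 CPM in a single WT library of day 7. It passed in KO (adjusted p = 0.000679), and with all KO libraries of day 7 at 0 no fold change is given.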
